A study of Mus musculus with 12 samples.

Results

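The MHC class I antigen presentation genes followed here are H2-D1, H2-K1, H2-T23, B2m, Tap1, Tap2, Tapbp, Psmb8, Psmb9 and Nlrc5. They were chosen by name, as the table entries whose gene symbol equals one of these, which gave 10 genes of the 48795 in the count table. Each symbol matched 1 entry. All 10 passed the expression filter, which kept 17725 genes. RNA-seq read counts came from the piriform cortex, the olfactory cortex, of 12 mice aged 12 months. The tested animals were 6 mice labelled heterozygous Q140 knock-in, which carry on 1 copy of the huntingtin gene Htt an expanded CAG repeat inserted at the gene's own locus, and they were set against 6 wild types. Both groups held 3 females and 3 males on a C57BL/6 background and all libraries were on plate 1. No transgene promoter, Cre driver or drug treatment is named in the labels. Each library was 1 animal, so the p-values below measure the spread between animals.

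MHC class I molecules show fragments of a cell's own proteins on its surface. The proteasome cuts proteins into peptides, and its interferon-inducible subunits, among them those made by Psmb8 and Psmb9, change which peptides are cut. The TAP transporter, built from the Tap1 and Tap2 products, carries the peptides into the endoplasmic reticulum. There tapasin, the Tapbp product, helps load them onto a heavy chain (H2-D1, H2-K1 and H2-T23 make such chains) paired with beta-2 microglobulin, the B2m product. Nlrc5 makes a transactivator of class I genes that responds to interferon gamma and acts through factors bound to a conserved promoter module, which includes a site resembling a cyclic AMP response element and a CCAAT box. In the brain the pathway is known mainly from microglia and vessels, and in mouse neurons class I heavy chains have been tied to the pruning and plasticity of synapses.

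Total counts ran from 19.6 to 35.2 M per animal, and 3 counts, the limit that a count of 0 allows, corresponded to 0.0852 CPM in the deepest library and 0.153 CPM in the shallowest (counting error only). CPM here means reads per 1 M of the library size scaled by TMM, a correction for library composition. Htt, the gene that carries the knock-in, stood at 143 to 164 CPM in the Q140 animals and at 180 to 204 CPM in the wild types, without overlap (log2 fold change -0.37, SE 0.0428). No listed marker of cortical neurons, glia or vessels was at 0 in all animals. Among the wild types, animal 3 had the lowest levels of meningeal and border macrophage markers and animal 4 the highest.

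Promoter windows of H2-D1, H2-K1, H2-T23 and B2m are given here because their products pair with one another as heavy and light chains, and because 3 of these 4 genes differed by genotype in the comparison below. The sequences are from RefSeq (GRCm38.p6) and run 5′ to 3′ from 250 bases before the annotated start to 50 bases after it. The H2-D1 window is chr17:35262844-35263143 on the plus strand, and for H2-K1, which has 2 overlapping windows, chr17:34000284-34000583 on the minus strand is shown. The H2-T23 window is chr17:36032652-36032951 on the minus strand and the B2m window is chr2:122147437-122147736 on the plus strand. Capitals mark matches, on either strand, to the letters of a CRE-like core (TGACG), of an interferon regulatory factor core (AANNGAAA), of a kappa B site (GGGNNTTCC) and of a gamma-activated site (TTCNNNGAA). They also mark the CCAAT box, searched by those letters alone. No marked matches overlap in these windows.
H2-D1: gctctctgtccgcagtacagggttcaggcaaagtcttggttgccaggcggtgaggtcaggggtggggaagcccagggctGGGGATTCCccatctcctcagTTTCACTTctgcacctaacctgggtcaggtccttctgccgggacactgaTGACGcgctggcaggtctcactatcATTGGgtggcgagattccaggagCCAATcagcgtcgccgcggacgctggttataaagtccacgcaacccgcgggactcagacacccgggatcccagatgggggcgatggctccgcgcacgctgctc
H2-K1: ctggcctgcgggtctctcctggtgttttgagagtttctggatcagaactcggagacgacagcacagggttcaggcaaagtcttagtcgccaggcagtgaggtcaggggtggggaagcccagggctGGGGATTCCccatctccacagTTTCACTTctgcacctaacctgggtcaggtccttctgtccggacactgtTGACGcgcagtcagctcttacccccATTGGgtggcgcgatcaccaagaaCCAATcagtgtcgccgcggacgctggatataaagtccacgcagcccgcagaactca
H2-T23: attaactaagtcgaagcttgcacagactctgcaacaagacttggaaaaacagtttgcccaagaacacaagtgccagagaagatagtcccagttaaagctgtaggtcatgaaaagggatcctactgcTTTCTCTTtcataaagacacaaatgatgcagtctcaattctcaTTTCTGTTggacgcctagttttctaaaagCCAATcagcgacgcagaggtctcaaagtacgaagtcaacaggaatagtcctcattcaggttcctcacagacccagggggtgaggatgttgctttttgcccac
B2m: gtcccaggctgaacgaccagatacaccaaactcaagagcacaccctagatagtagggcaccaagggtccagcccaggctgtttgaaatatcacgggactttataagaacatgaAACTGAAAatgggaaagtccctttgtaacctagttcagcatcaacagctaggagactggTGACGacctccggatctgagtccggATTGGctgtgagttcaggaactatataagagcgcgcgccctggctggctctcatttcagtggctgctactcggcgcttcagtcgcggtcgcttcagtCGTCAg

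The windows of H2-D1 and H2-K1 were 88.9% identical over 253 aligned bases and held the same matches in the same order. In H2-D1 the kappa B match lay at -171 to -163 from the annotated start, the interferon regulatory factor core at -150 to -143, the CRE-like core at -101 to -97 and the CCAAT boxes at -76 to -72 and -53 to -49. B2m held an interferon regulatory factor core at -137 to -130, a CRE-like core at -78 to -74 and a CCAAT box at -53 to -49, with a second CRE-like core after the start, and no kappa B match. H2-T23 held a pair of interferon regulatory factor cores and a CCAAT box. Windows were at hand for 8 of the 10 genes. Of these 8, an interferon regulatory factor core was present in 4 genes, against 23.9% of 32851 promoter windows of the same length. A CRE-like core was present in 5 genes against 20.8% of windows, a CCAAT box in 7 against 37.4%, a kappa B match in 2 against 5.82%, and a gamma-activated site in 1, Psmb8, against 8.30%. The windows of Tap1 and Psmb9 lie on opposite strands of chromosome 17, with the genes running away from each other, and share 275 of their 300 bases. Their CRE-like core is the same site read from either strand, and so is their CCAAT box, so each was counted for both genes. Both genes with a kappa B match are H2-D1 and H2-K1, whose windows are near copies. The counts of genes are therefore not of separate sites, and the background counts windows rather than genes. These matches are descriptions of letters and show no binding.

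Per length, the light chain was the most abundant of the 10 transcripts and the transactivator the least. In the deposited FPKM (fragments per kilobase of gene and per 1 M), B2m averaged 119 ± 11.1 in Q140 and 91.3 ± 15.1 in wild type (SD, n = 6 each, as for all means below). H2-D1 averaged 24.6 ± 1.78 FPKM in Q140 and 17.3 ± 3.11 in wild type, and H2-K1 17.2 ± 1.68 and 13 ± 2.22. Tapbp followed at 9.79 ± 0.790 FPKM in Q140 and 8.53 ± 0.91 in wild type. Tap2 and H2-T23 were neighbours that could not be ordered, with 3.15 to 4.72 and 2.94 to 4.19 FPKM over the Q140 animals and means of 2.98 and 3.06 FPKM in wild type. Psmb8 averaged 1.59 ± 0.295 FPKM in Q140 and 1.19 ± 0.188 in wild type, and Tap1 0.981 ± 0.190 and 0.898 ± 0.149. Psmb9 averaged 0.513 ± 0.0973 FPKM in Q140 and 0.390 ± 0.0681 in wild type, and Nlrc5 0.274 ± 0.0313 and 0.177 ± 0.0456. Read numbers differed widely, with 1676 to 3797 counts per animal for B2m, 25 to 69 for Psmb9 and 26 to 90 for Nlrc5. The SE of the log2 fold change between genotypes did not follow the counts throughout. It was 0.149 for Psmb9 and 0.162 for Nlrc5, but 0.0954 for B2m against 0.0619 for Tapbp, which had 612 to 1128 counts per animal.

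Between genotypes, 5 of the 10 genes were higher in Q140 cortex at an adjusted p below 0.05 (edgeR quasi-likelihood test with sex as a covariate, Benjamini-Hochberg over all genes tested), and none was lower. Of all 17725 genes tested, 4.50% were called higher and 6.69% lower. The genes that rose were both classical heavy chains, the light chain, Tap2 and Nlrc5, by 25.2 to 48.9%. All 10 log2 fold changes were positive, from 0.07 to 0.57, with a median of 0.33, whereas the median over all genes tested was 0.00 and 51.3% of those were positive. For none of the 10 genes did every Q140 animal exceed every wild type, a pattern that 1.88% of tested genes showed. In tissue RNA such as this, more cells of a type and more RNA per cell cannot be told apart.

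**Figure D1:**
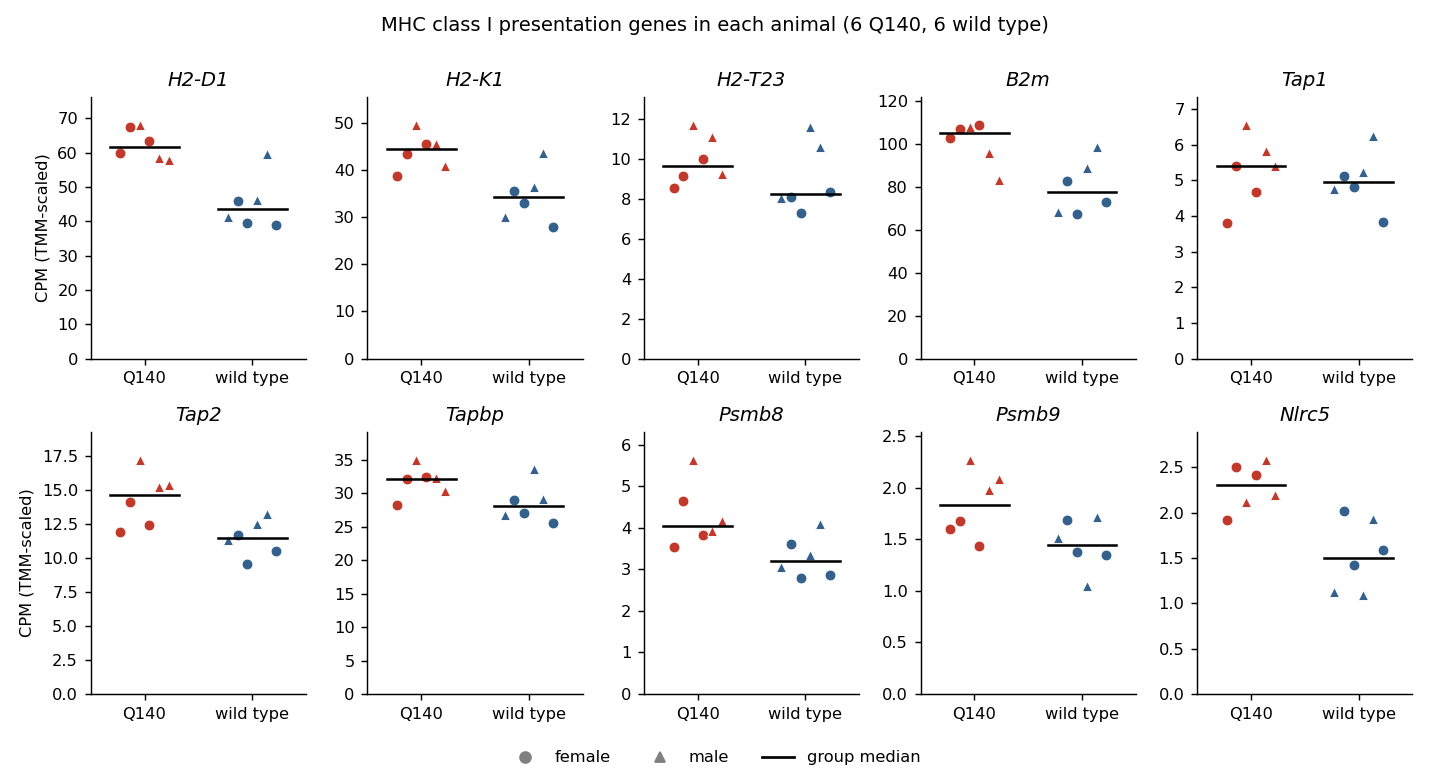
TMM-scaled CPM of each gene in each animal, with Q140 left and wild type right, circles for females, triangles for males and black lines for group medians; each panel has its own axis from 0. The Q140 median lies above the wild type median in all 10 panels and the groups overlap in each, with wild type 5 at 59.6 CPM of H2-D1 among Q140 values of 57.7 to 68.1.

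H2-D1, the classical heavy chain of the D locus (ENSMUSG00000073411, chromosome 17, 35262730 to 35267499 on GRCm38), had a lowest, median and highest level of 57.7, 61.5 and 68.1 CPM in Q140, against 38.8, 43.5 and 59.6 CPM in wild type. Wild type 5 was the sole wild type to reach the Q140 range, and the other 5 lay at 46.3 CPM or below. The log2 fold change was 0.47 (SE 0.0891, adjusted p = 0.00465 by edgeR), a 1.39-fold higher level. The call held with each animal left out in turn, with adjusted p between 0.00039 and 0.0151.

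H2-K1, the classical heavy chain of the K locus (ENSMUSG00000061232, chromosome 17, 33996017 to 34000347), had 38.8, 44.6 and 49.7 CPM in Q140 as lowest, median and highest, against 27.9, 34.3 and 43.7 CPM in wild type. Again 5 wild types, at 36.5 CPM or below, lay under all Q140 animals, and wild type 5 lay among them. The log2 fold change was 0.36 (SE 0.0870, adjusted p = 0.0185 by edgeR). The H2-D1 level was 144 ± 10.5% of the H2-K1 level in Q140 and 133 ± 7.61% in wild type, per length, with ranges that overlapped.

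H2-T23 (ENSMUSG00000067212, chromosome 17, 36029773 to 36032855) makes Qa-1, a non-classical heavy chain that presents leader peptides of other class I chains to natural killer receptors. Its lowest, median and highest levels were 8.51, 9.64 and 11.7 CPM in Q140, against 7.29, 8.22 and 11.6 CPM in wild type. The wild type males 4 and 5, at 11.6 and 10.6 CPM, stood above most Q140 animals, and the log2 fold change of 0.16 (SE 0.0947, adjusted p = 0.318 by edgeR) did not pass. The heavy chains are close copies. Of the distinct 50-base stretches in the annotated transcripts, 12.8% of those of H2-D1, 9.63% of those of H2-K1 and 14.5% of those of H2-T23 also occur in another gene, mostly another heavy chain, so part of their reads could have been split or dropped in counting.

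B2m, the shared light chain (ENSMUSG00000060802, chromosome 2, 122147686 to 122153083), had 83.2, 105 and 109 CPM in Q140 as lowest, median and highest, against 67.3, 77.8 and 98.5 CPM in wild type. Q140 animals 1 to 4 exceeded every wild type, while Q140 animals 5 and 6, both male, overlapped wild types 4 and 5. The log2 fold change was 0.34 (SE 0.0954, adjusted p = 0.0335 by edgeR). This call was lost when Q140 animal 1, 2, 3 or 4 or wild type 1, 2, 3 or 6 was left out, with adjusted p over the 12 omissions between 0.00997 and 0.0824 and log2 fold changes of 0.29 to 0.41. It was also lost with the plate column as a covariate (0.34, adjusted p = 0.0518) and with an offset for length and GC content (0.30, adjusted p = 0.0590). None of its 50-base stretches occurs in another annotated gene. It lies outside the MHC, on another chromosome.

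The genes of the peptide transporter had unlike values. Tap2 (ENSMUSG00000024339, chromosome 17, 34203527 to 34216321) had 11.9, 14.6 and 17.2 CPM in Q140 as lowest, median and highest, against 9.57, 11.5 and 13.2 CPM in wild type. The 3 Q140 males, at 15.2 to 17.2 CPM, and Q140 female 2 lay above every wild type, and Q140 females 1 and 4 lay within the wild type range. Its log2 fold change was 0.32 (SE 0.0710, adjusted p = 0.0106 by edgeR) and the call held with each animal left out. Tap1 (ENSMUSG00000037321, 34187553 to 34197225 on the same chromosome) had 3.80, 5.41 and 6.56 CPM in Q140, against 3.82, 4.96 and 6.23 CPM in wild type, which is nearly full overlap. Its log2 fold change was 0.07 (SE 0.112, adjusted p = 0.721 by edgeR). Per length, Tap1 stood at 25.2 ± 1.80% of Tap2 in Q140 and at 30.1 ± 3.28% in wild type, with ranges of 22 to 26.6% and 25.2 to 34.6%. That ratio was not tested between genotypes. Tap1 shares 212 exon bases with Psmb9 on the opposite strand, and the strand setting of the counting is not given in the sources used here.

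Tapbp, which makes the loading chaperone tapasin (ENSMUSG00000024308, chromosome 17, 33915899 to 33929292), had 28.3, 32.2 and 35.0 CPM in Q140 as lowest, median and highest, against 25.6, 28.1 and 33.6 CPM in wild type. Wild type 4 held the highest wild type value and lay above 5 of the 6 Q140 animals. The log2 fold change of 0.15 (SE 0.0619, adjusted p = 0.127 by edgeR) did not pass; without wild type 4 it was 0.20 with an adjusted p of 0.0391. Tapbp shares 149 exon bases with Zbtb22 on the same strand and 904 with the antisense gene Gm19412.

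The 2 immunoproteasome genes were low and did not pass. Psmb8, which makes the subunit LMP7 (ENSMUSG00000024338, chromosome 17, 34197721 to 34201454), had 3.54, 4.05 and 5.63 CPM in Q140 as lowest, median and highest, against 2.80, 3.20 and 4.09 CPM in wild type (log2 fold change 0.37, SE 0.124, edgeR adjusted p = 0.0665). Q140 male 3 stood highest, and wild types 2 and 5 reached the Q140 range. Without Q140 animal 5 the adjusted p was 0.0438. Psmb9, which makes the subunit LMP2 (ENSMUSG00000096727, chromosome 17, 34181987 to 34187764), had 1.44, 1.83 and 2.27 CPM in Q140 against 1.05, 1.45 and 1.72 CPM in wild type (0.32, SE 0.149, edgeR adjusted p = 0.187). Its 3 Q140 males, at 1.98 to 2.27 CPM, lay above every wild type and its 3 Q140 females lay within the wild type range. Both subunits were scarce beside the constitutive ones they replace. Psmb8 stood at 3.92 ± 0.656% of Psmb5 in Q140 and at 3.20 ± 0.681% in wild type, per length, and Psmb9 at 1.38 ± 0.210% of Psmb6 in Q140 and at 1.11 ± 0.189% in wild type. The size of these ratios depends on the 1 length per gene behind the deposited FPKM. In CPM, which takes no account of length, Psmb8 averaged 4.29 in Q140 against 34.9 for Psmb5. Psmb9 averaged 1.84 CPM in Q140 against 68.4 CPM for Psmb6.

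Nlrc5, the transactivator (ENSMUSG00000074151, chromosome 8, 94434356 to 94527272), had the greatest log2 fold change of the 10 genes, at 0.57 (SE 0.162, adjusted p = 0.0358 by edgeR). Its lowest, median and highest levels were 1.92, 2.30 and 2.58 CPM in Q140, against 1.09, 1.5 and 2.02 CPM in wild type. Q140 animal 1, at 1.92 CPM, was the sole Q140 animal within the wild type range, and wild type males 1 and 4 were lowest at 1.13 and 1.09 CPM. It was read with 429 counts over the 6 Q140 animals and 266 over the 6 wild types. The call was lost when any of Q140 animals 2 to 6 or wild types 1, 3, 4 or 6 was left out, with adjusted p over the 12 omissions between 0.0219 and 0.0861 and log2 fold changes of 0.50 to 0.68.

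Within each sex all 10 differences were positive as well. In females, 3 animals of each genotype, H2-D1 and B2m passed and the other 8 did not, against 2.83% of all tested genes called higher in females. H2-D1 averaged 63.5 ± 3.82 CPM in Q140 females and 41.4 ± 3.86 CPM in wild type females (log2 fold change 0.62, SE 0.117, edgeR adjusted p = 0.00963, n = 3 each). B2m averaged 106 ± 3.31 CPM in Q140 females and 74.3 ± 7.86 CPM in wild type females (0.51, SE 0.122, edgeR adjusted p = 0.0255, n = 3 each). The female call of H2-D1 was lost without Q140 animal 2 (adjusted p = 0.0583). The female call of B2m was lost without Q140 animal 1, 2 or 4 or wild type 3 or 6 (adjusted p from 0.0564 to 0.104).

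In males none of the 10 genes passed in edgeR, against 0.440% of all tested genes called higher in males. At an unadjusted p below 0.05 there were 5, namely H2-D1, H2-K1, Tap2, Psmb9 and Nlrc5, where 2940 of the 17725 tested genes had one in either direction. Tap2 was nearest, at 16 ± 1.11 CPM in Q140 males and 12.3 ± 0.977 CPM in wild type males (log2 fold change 0.37, SE 0.101, adjusted p = 0.0890 by edgeR, n = 3 each), and DESeq2 gave it an adjusted p of 0.0349. Nlrc5 averaged 2.30 ± 0.250 CPM in Q140 males and 1.38 ± 0.472 CPM in wild type males (0.73, SE 0.237, edgeR adjusted p = 0.151, n = 3 each). The male wild types were spread widely for the classical chains, H2-D1 at 41.1, 46.3 and 59.6 CPM.

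The male Q140 effect minus the female one passed for none of the 10 genes and for 0% of all tested genes, of which 1633 had an unadjusted p below 0.05 (edgeR interaction contrast); none of the 10 had one. The differences furthest from 0 were -0.34 (SE 0.173) for B2m and -0.29 (SE 0.166) for H2-D1, where the female effect was the larger, and 0.47 (SE 0.28) for Psmb9, where the male effect was the larger. With standard errors of this size, effects that differ between the sexes by such amounts could not be detected.

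**Figure D2:**
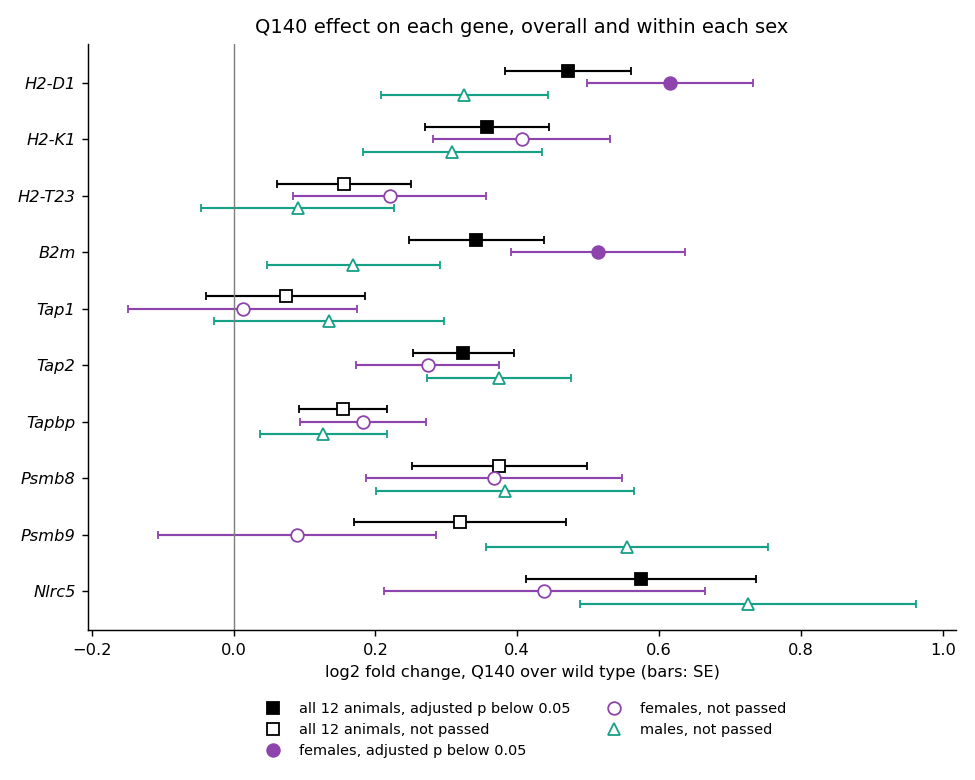
Log2 fold change of Q140 over wild type for each gene with its SE, over all 12 animals (squares), in females (circles) and in males (triangles); filled symbols passed an adjusted p of 0.05. All values are positive, the lowest at 0.01 for Tap1 in females, with 5 filled over all animals, 2 in females and none in males.

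Of the 10 genes, 8 lie in the MHC on chromosome 17, where most of the neighbouring genes did not pass the test. Between the first base of H2-K1 and the last of H2-T23 (33996017 to 36032855, 2.037 Mb on GRCm38), 101 genes were tested, 7 of them from the class I set, since Tapbp lies just before H2-K1. Of the other 94, 2 were higher and 3 lower, which is 2.13% and 3.19%, and their median log2 fold change was 0.01. The 2 that rose were Ddr1, a collagen receptor kinase that oligodendrocytes express, with 87.3 CPM in Q140 and 73.4 CPM in wild type (0.25, SE 0.0485, edgeR adjusted p = 0.00573), and Atat1, a tubulin acetyltransferase (0.15, SE 0.0389). The 3 that fell were the heat shock gene Hspa1b (-0.57, SE 0.156), C4a (-0.62, SE 0.175), a complement C4 gene with a close copy beside it, and Stk19 (-0.22, SE 0.0662), next to C4a. C4a was the scarcer copy, at 2.01 CPM in Q140 and 3.07 CPM in wild type. The other copy, C4b, had 68.2 CPM in Q140 and 57.9 CPM in wild type. Its log2 fold change was positive and did not pass (0.28, SE 0.131, edgeR adjusted p = 0.183).

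**Figure D3:**
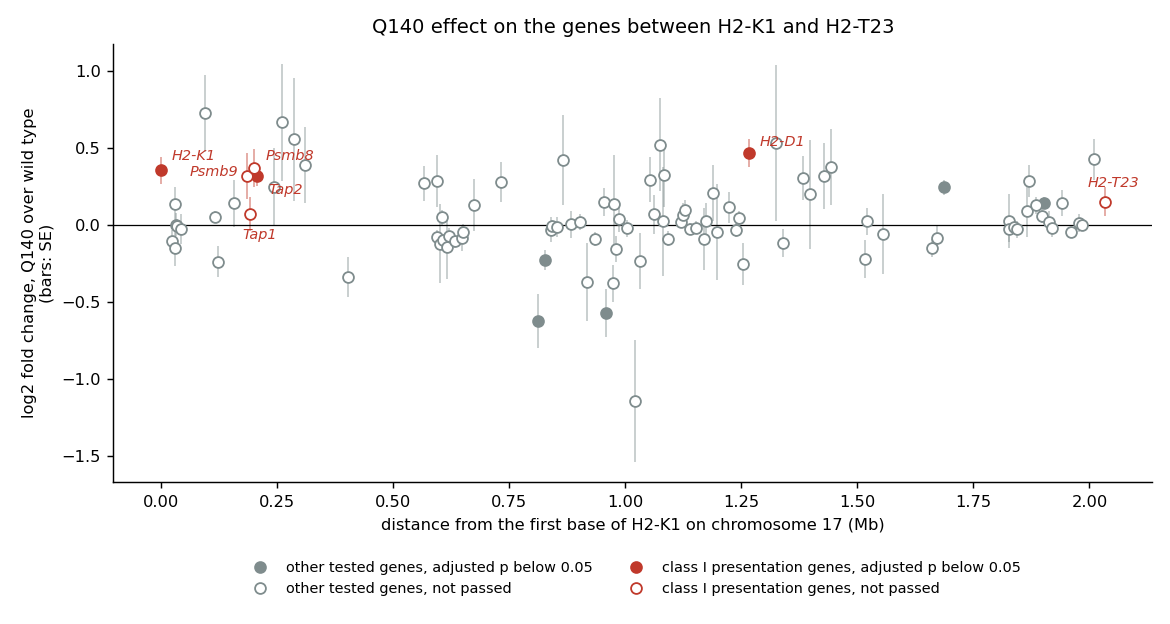
Log2 fold change of Q140 over wild type (SE bars) for the 101 tested genes between H2-K1 and H2-T23, by distance from H2-K1 in Mb; class I presentation genes in red, others in grey, filled where the adjusted p was below 0.05. The 3 filled red points are H2-K1, Tap2 and H2-D1, and the grey points scatter around 0 with a median of 0.01.

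Other parts of the pathway were compared from lists of textbook members. Of 28 other class I and class I-like heavy chains, 25 were in the table and 16 passed the filter, of which 2 rose and 14 did not pass the test, with a median log2 fold change of 0.30. Mr1, which presents vitamin B metabolites, averaged 8.91 ± 1.03 CPM in Q140 and 6.86 ± 1.08 CPM in wild type (0.38, SE 0.0895, edgeR adjusted p = 0.0164). Hfe, a class I-like regulator of iron uptake, averaged 6.29 ± 0.943 CPM in Q140 and 4.62 ± 0.909 CPM in wild type (0.46, SE 0.124, edgeR adjusted p = 0.0297). Neither Mr1 nor Hfe is known to present peptides cut by the proteasome. No other heavy chain of the Q, T and M regions passed.

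Among 15 other genes of loading, trimming and quality control, 1 rose, Pdia3, the disulfide isomerase of the loading complex, at 173 ± 21 CPM in Q140 and 148 ± 5.36 CPM in wild type (0.22, SE 0.0558, edgeR adjusted p = 0.0221). The median of that list was 0.00. A list of 6 other proteasome genes held Psmb10, the assembly chaperone gene Pomp and the activator genes Psme1 to Psme4. Of these, Psme1 and Psme2, the paired subunits of the interferon-inducible PA28 activator, rose and the other 4 did not pass, among them Psme3 and Psme4, which are not known as interferon-inducible. Psme1 had 27.6 to 33.5 CPM over the Q140 animals and 21.4 to 27.0 CPM over the wild types, without overlap (0.32, SE 0.0624, edgeR adjusted p = 0.00594). Psme2 had 4.77 to 7.56 CPM in Q140 and 4.46 to 5.36 CPM in wild type (0.34, SE 0.102, edgeR adjusted p = 0.0478). Psmb10, the remaining immunoproteasome catalytic subunit, had a log2 fold change of 0.15 (edgeR adjusted p = 0.190). Per length, Psmb10 stood at 53.3 ± 3.77% of Psmb7, its constitutive counterpart, in Q140 and at 48.5 ± 2.71% in wild type. That ratio too depends on the length given to each gene, and in CPM Psmb10 averaged 20.5 in Q140 against 76.9 for Psmb7. Of 14 constitutive 20S proteasome subunits, 1 rose, Psmb4, by 0.12 (SE 0.0318), and the median was 0.06. MHC class II and its cofactors gave 2 higher of 10 tested, both of them lysosomal proteases, Ctss (0.28, SE 0.0580) and Lgmn (0.13, SE 0.0392), and a median of 0.34.

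Upstream of the promoters, 4 of 18 factors known to act on class I promoters rose and none fell, with a median of 0.10. Relb, a kappa B factor, averaged 5.96 ± 0.629 CPM in Q140 and 4.27 ± 0.602 CPM in wild type, with ranges of 5.28 to 6.59 and 3.66 to 5.02 that did not overlap (0.48, SE 0.107, edgeR adjusted p = 0.0119). Nfya and Nfyc, 2 of the 3 subunits of the CCAAT-binding factor NF-Y, rose by 0.28 (SE 0.0680) and 0.20 (SE 0.0537), while Nfyb, the other subunit, had a log2 fold change of -0.14 (edgeR adjusted p = 0.0533). Irf7, an interferon regulatory factor, averaged 3.29 ± 0.553 CPM in Q140 and 2.13 ± 0.750 CPM in wild type (0.66, SE 0.175, edgeR adjusted p = 0.0281). Irf1 had a log2 fold change of 0.04, and the RFX subunits Rfx5, Rfxap and Rfxank, through which NLRC5 acts, had -0.03, 0.06 and 0.09, and none of these passed.

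The interferons themselves were almost unread. Of 9 interferon genes none passed the filter, and Ifna1, Ifna2, Ifna4, Ifnb1, Ifng and Ifnl2 were at 0 counts in all 12 animals. Of 16 receptors and signalling genes, none rose and 1 fell, Socs3, a feedback inhibitor of cytokine signalling, with 5.01 ± 0.721 CPM in Q140 and 6.76 ± 1.01 CPM in wild type (-0.43, SE 0.12, edgeR adjusted p = 0.0353). Of 48 tested genes among 50 other interferon-stimulated genes, 20 rose and none fell, with a median of 0.42. Those with the smallest p were the GTPase genes Irgm2 (0.64, SE 0.110) and Irgm1 (0.45, SE 0.0807), Parp9, a partner of the ubiquitin ligase Dtx3l (0.45, SE 0.0941), and Xaf1 (0.50, SE 0.107). The receptors of class I molecules gave no call among 4 tested of 16. Pirb, an inhibitory class I receptor of myeloid cells and neurons, had 0.781 ± 0.293 CPM in Q140 and 0.523 ± 0.0733 CPM in wild type (0.59, edgeR adjusted p = 0.141), and Cd8a had 30 counts over the Q140 animals and 32 over the wild types.

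Markers of cell types that carry class I moved with genotype in part. Among microglia markers 4 of 18 rose and 17 were positive, with summed levels of 641 to 784 CPM in Q140 and 594 to 720 CPM in wild type. The 4 were Ctss, which is also on the class II list, Sall1 (0.22), Tyrobp (0.28) and Tmem119 (0.27). Among those not called, Cx3cr1 (-0.001), Fcrls (0.006), Gpr34 (0.01), Aif1 (0.03) and P2ry12 (0.06) lay near 0. Border macrophage markers were positive in 10 of 10, with 1 call, Siglec1, an interferon-inducible lectin (1.43, SE 0.266), and sums of 43.6 to 76.5 CPM in Q140 and 22.7 to 67.6 CPM in wild type. Endothelial markers were positive in 16 of 16, with calls of Ly6a (0.40) and Ly6c1 (0.33), and sums of 588 to 758 CPM in Q140 and 501 to 685 CPM in wild type. Meningeal fibroblast markers were positive in 15 of 15 with no call, Foxc1 having the smallest p (0.48, edgeR adjusted p = 0.190), and sums of 222 to 568 CPM in Q140 and 54.5 to 540 CPM in wild type. Oligodendrocyte markers rose in 4 of 12, namely Mog (0.61), Mag (0.49), Ermn (0.48) and Cnp (0.40), with sums of 4190 to 5976 CPM in Q140 and 3709 to 5241 CPM in wild type. Among astrocyte markers 6 of 10 were positive, S100b rose (0.56, SE 0.0704, edgeR adjusted p = 0.000351) and the glutamate transporter gene Slc1a2 fell (-0.31, SE 0.0823, edgeR adjusted p = 0.0275), with sums of 5445 to 7122 CPM in Q140 and 6201 to 7871 CPM in wild type.

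Neuronal markers went the other way in part. Of 9 excitatory neuron markers, 0 were positive and 3 fell, Arpp21 (-0.50), Camk2a (-0.42) and the vesicular glutamate transporter gene Slc17a7 (-0.34). The sums over the 9 were 5456 to 6022 CPM in Q140 and 6692 to 8576 CPM in wild type, without overlap. Most of each sum came from Camk2a and Slc17a7, which averaged 2785 and 1438 CPM in Q140 and 3714 and 1823 CPM in wild type. With each gene weighted alike, the list levels overlapped. They were -0.313 to 0.033 in Q140 and -0.235 to 0.43 in wild type (log2, relative to the mean of the 12 animals). Of 7 inhibitory neuron markers, 3 were positive and 2 fell, Sst (-0.76) and Lhx6 (-0.43), with sums of 525 to 668 CPM in Q140 and 552 to 770 CPM in wild type. No marker of these lists was at 0 in all animals. Of 17 T and NK cell markers, Cd4 and Trac passed the filter and neither was called. Cd4 averaged 2.91 ± 1.48 CPM in Q140 and 4.68 ± 3.43 CPM in wild type and made up most of the list's sums of 2.24 to 6.37 CPM in Q140 and 1.56 to 10.5 CPM in wild type. The other 16 averaged 0.285 CPM or less in Q140 and 0.353 CPM or less in wild type. Of 4 tested B cell markers 1 rose, Igkc, whose level ran from 0.0290 to 16.9 CPM among the Q140 animals and from 0.0338 to 0.766 CPM among the wild types.

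Taken as mean levels per animal over 12 marker lists, no list differed by genotype after adjustment (exact permutation test over animals, two-sided). The smallest unadjusted values were 0.0303 for excitatory neurons, 0.0411 for border macrophages, 0.0498 for endothelium and 0.0584 for microglia, each with an adjusted p of 0.175. Wild type 4 was the highest wild type on the border macrophage and meningeal lists (0.56 and 1.17 above the mean of the 12 animals, log2) and on H2-T23 and Tapbp, and had the lowest Nlrc5 and Psmb9 of all animals, at 1.09 and 1.05 CPM. Wild type 5, which carried the most H2-D1, H2-K1 and B2m of the wild types, was the second highest wild type on the border macrophage and meningeal lists, at 0.14 and 0.34, and stood at -0.15 on the microglia list. On the striatal neuron list it was the highest of all animals, at 1.11, and wild type 6 the lowest, at -1.89. The Q140 animals ran from -0.73 to 0.53 on that list. The cause of this spread was not tested.

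**Figure D4:**
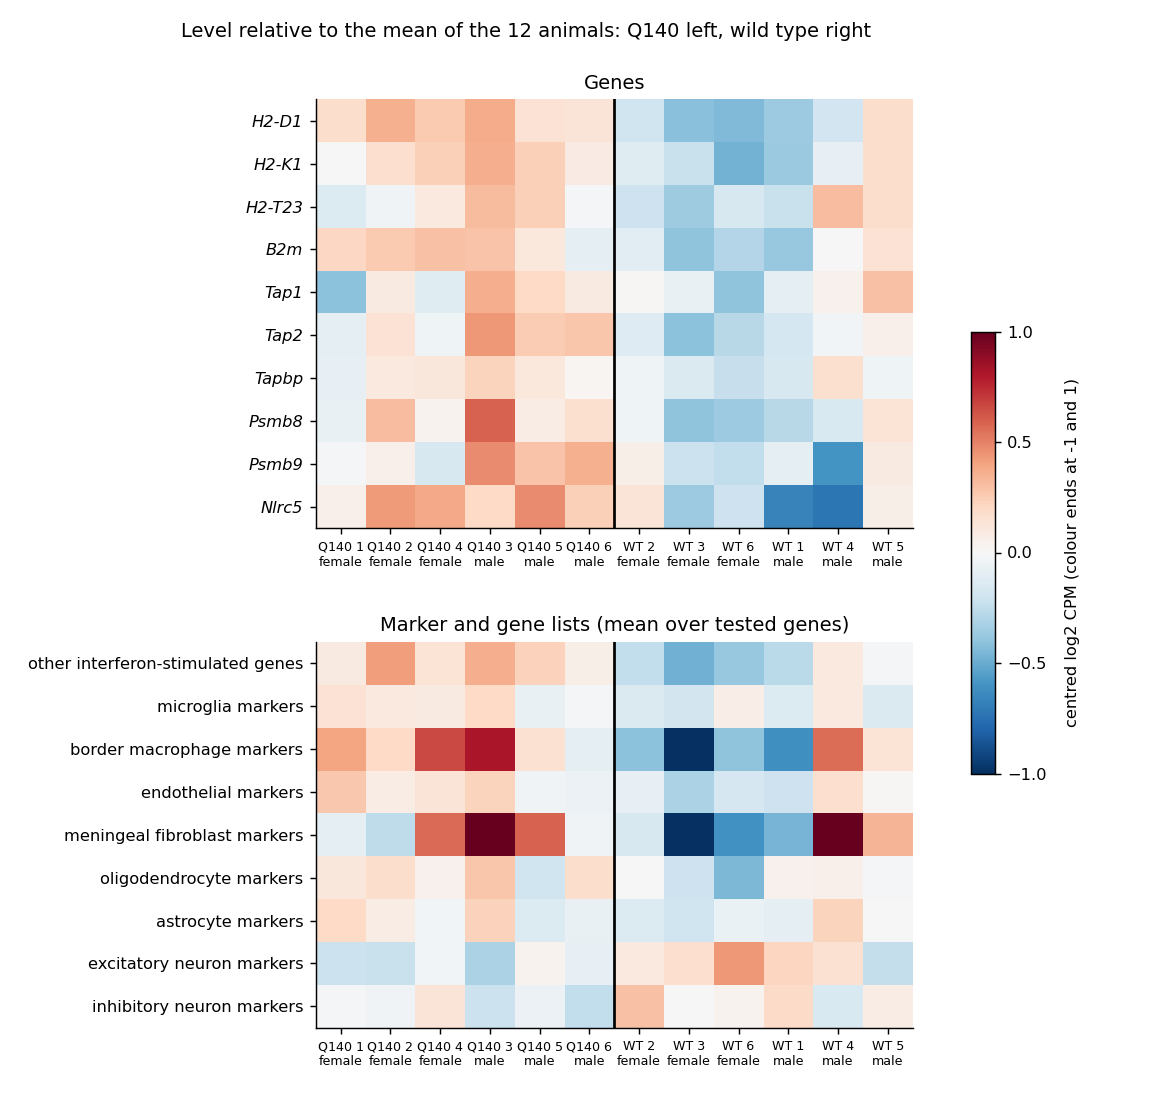
Log2 CPM of the 10 genes (top) and mean log2 CPM of marker and gene lists (bottom) relative to the mean of the 12 animals, Q140 left of the black line and wild type right, females before males within each. Wild type 3 is lowest on the border macrophage (-1.40) and meningeal (-2.17) lists and wild type 4 is highest on the meningeal list (1.17), while the interferon-stimulated list ranges from 0.06 to 0.42 in Q140 and from -0.48 to 0.09 in wild type.

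With the mean of a marker list as an added covariate, fewer of the class I calls held. Fewer were made over all genes as well, with 797 called higher without a covariate and 175, 174 and 130 with the microglia, endothelial and border macrophage lists. With the microglia list Nlrc5 alone of the 10 was called (log2 fold change 0.76, edgeR adjusted p = 0.0473), while H2-D1 had 0.45 (adjusted p = 0.0515), H2-K1 0.38 (adjusted p = 0.0843) and Tap2 0.29 (adjusted p = 0.0961). With the endothelial list there was no call, and H2-D1 had 0.34 (adjusted p = 0.0759) and B2m 0.15. With the border macrophage list, chosen after the data were seen, there was also no call, and B2m had 0.11 (adjusted p = 0.472) and H2-T23 -0.04. Nlrc5 stayed between 0.53 and 0.76 under all 5 marker covariates, and Tap2 between 0.26 and 0.29, whereas B2m had between 0.11 and 0.27. These marker lists hold genes that were themselves called higher in Q140, among them Siglec1, Ly6a, Ly6c1 and Ctss. The fits therefore cannot tell the number of cells from the RNA per cell. The part of each cell type in the class I differences was not tested.

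The names of the animals in the table headings carry a prefix whose meaning is not given in the sources used here, and it is unevenly spread over the genotypes. RFckQ stands on 1 Q140 animal and 4 wild types, and RFQ on 3 Q140 animals and 1 wild type. All RFQ animals were male. Q140 animals 1 and 2, both female, carry no prefix, and FMQ stands on wild type 6 alone, also female. For these animals the naming and the genotype cannot be told apart, and the calls within females include them. Within RFckQ, H2-D1 was 63.3 CPM in the Q140 animal against 39.6 to 59.6 CPM in the wild types, and within RFQ it was 57.7 to 68.1 CPM in the Q140 animals against 46.3 CPM in the wild type. Nlrc5 was 2.42 CPM in the Q140 animal against 1.13 to 2.02 CPM in the wild types within RFckQ, and 2.12 to 2.58 against 1.09 CPM within RFQ. Within RFQ the B2m range of the Q140 animals, 83.2 to 108 CPM, included the wild type at 88.9 CPM. A fit with the prefix as a block, which uses the 9 RFckQ and RFQ animals and drops the other 3, left all 10 differences positive, with a median of 0.33. None was called, at 0.49 for H2-D1 (edgeR adjusted p = 0.146) and 0.75 for Nlrc5 (edgeR adjusted p = 0.273). Of all tested genes, 18 were called higher in that fit.

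**Figure D5:**
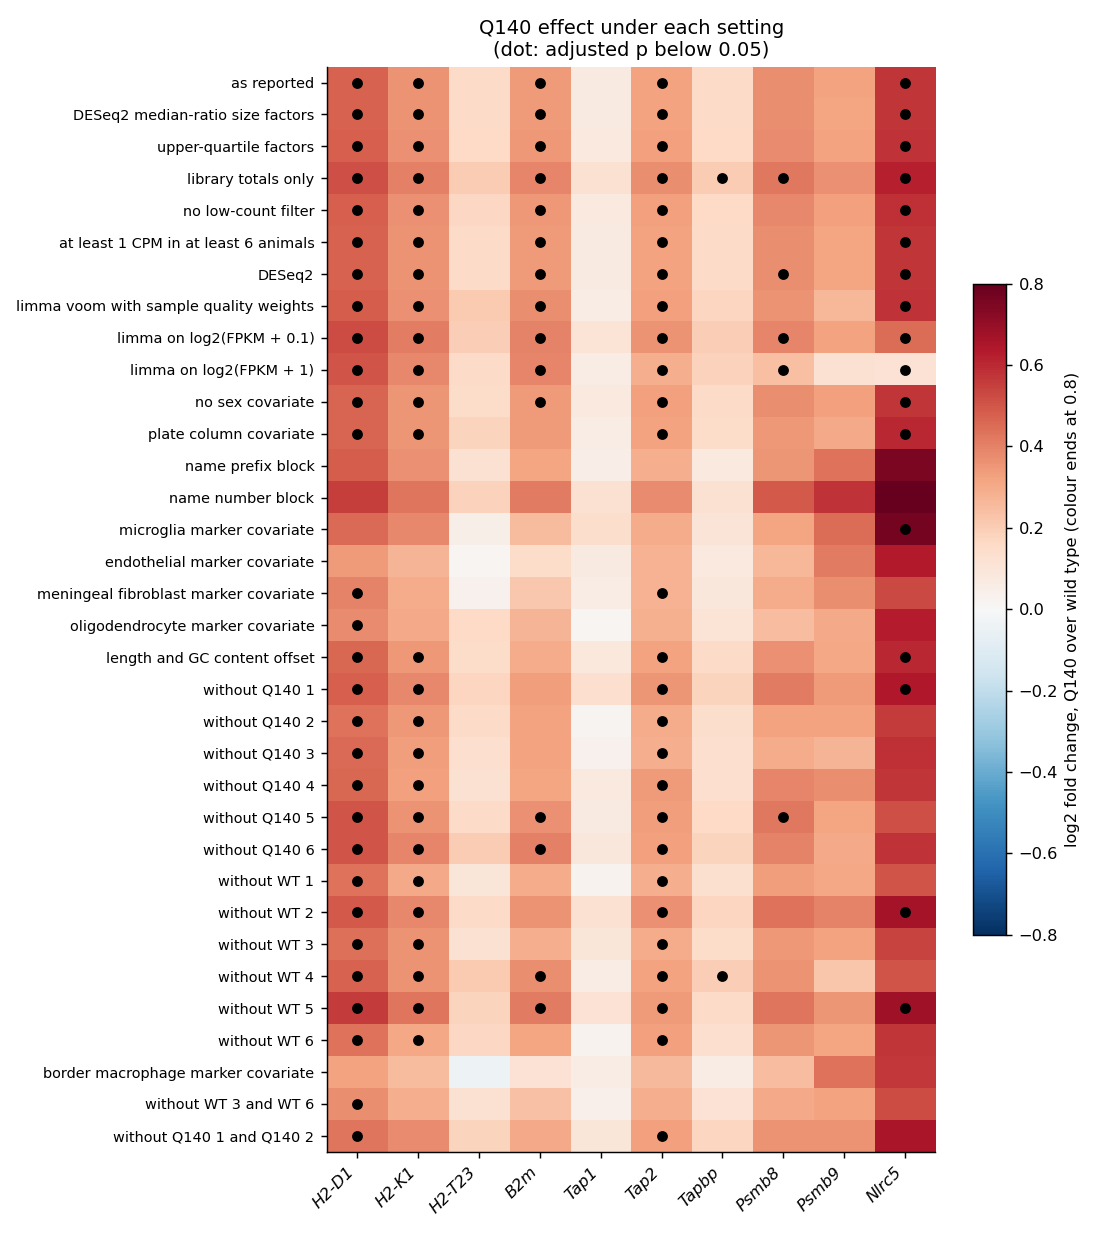
Log2 fold change of Q140 over wild type for each gene (columns) under each setting (rows), red for higher in Q140; a dot marks an adjusted p below 0.05. All cells but H2-T23 with the border macrophage covariate (-0.04) are positive, and H2-D1 has a dot in 28 of the 33 settings below the topmost one, which is the fit as reported.

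Between animals of the same genotype and sex, the 10 genes tended to vary together. After the genotype and sex means were removed, the Pearson correlation of log2 CPM over the 12 animals was positive for 42 of 45 pairs, with a median of 0.562. Tap2 and Psmb8, which lie side by side, had 0.903, H2-D1 and B2m 0.894 and H2-D1 and H2-K1 0.854. The negative pairs were all of Psmb9, with -0.369 to H2-T23, -0.307 to Tapbp and -0.140 to B2m. Its other pairs were positive, from 0.155 to H2-D1 up to 0.646 to Nlrc5. The animals share library depth and tissue composition in these correlations, so they are descriptions. By the same measure the genes outside the set whose pattern was most like the mean of the 10 were Pwwp2b (r = 0.928), Fam20c (0.884), Pofut2 (0.883), Lgals12 (0.873) and Gm15387 (0.867), and none of these 5 differed by genotype at the threshold. They are the highest values of a search over all tested genes outside the set, with 17725 tested in all. How high r runs by such selection alone over 12 animals was not tested. Lgals12 and Gm15387 were low, at 1.14 and 0.823 CPM in Q140.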

How the data were processed

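RNA-seq was made from piriform cortex with a Qiagen RNeasy extraction and a stranded Illumina TruSeq preparation, per the labels' protocols. The count table deposited by the authors gives raw whole reads for each gene in each library. STAR 2.7.5c, SAMtools 1.10 and HTSeq 0.12.3 and the builds GRCm38 and mm10 appear in the submitters' processing notes. The strand setting is not given in the sources used here. The deposited FPKM table follows from the same counts, the column totals and 1 length per gene, whose implied value varied over the animals by a coefficient of 5.56e-09 or less.

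The test reported was the quasi-likelihood test of edgeR 4.0.16 (R 4.3.3) after TMM and the default filter by genotype, with sex as a covariate. Effects within each sex, and their difference, came from a fit with 4 groups, 1 for each genotype in each sex. Adjusted p-values are two-sided Benjamini-Hochberg values over 17725 genes, with 0.05 as the threshold. Coordinates are from GENCODE M21, which matched 48349 identifiers. The fit was also run on simulated counts with 200 changed genes, drawn independently for each gene. That simulation held no shifts shared by many genes, such as tissue composition, so it cannot bear on them. Its outcome is not given here. No 2 libraries had identical counts. Total counts were 19.6 to 35.2 M per library, and the precision also depended on the spread between animals.

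The members and lists were chosen with earlier results of these data known. Named were all 10 members, up to 4 called genes of each pathway list by smallest p, or else the 1 with the smallest p, the 5 genes most like the members, and 5 genes of the MHC interval. The called genes of the cell type marker lists and a few other genes of the lists and of the interval were picked as examples after their values were seen. The border macrophage covariate and the omission of 2 animals together were also chosen after seeing the data. Alternatives used DESeq2 1.42.0 and limma 3.58.1 among others, with pseudocounts of 0.1 and 1 for log2(FPKM + pseudocount), on which scale the changes of low genes are understated.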

Additional observations from a re-analysis of the deposited data

Results flagged for a closer look

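Of 20 groups of 6 animals examined, 10 genes in 2 genotypes, 1 held a value set apart from the others. H2-D1 in wild type 5 was 59.6 CPM, and its gap to the next wild type took 0.644 of the range of that group, above Dixon's 95% critical value for 6 samples. Chance alone sets about 1 such value apart in 20 groups. Without wild type 5 the H2-D1 log2 fold change was 0.56 in place of 0.47, and the call held.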

How the results depend on the processing

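Of the 5 calls, H2-D1 held under 28 of 33 alternatives, Tap2 under 26, H2-K1 under 24, Nlrc5 under 16 and B2m under 14, and all 5 kept a positive sign under every alternative run. Psmb8 passed under 5 alternatives and Tapbp under 2, while H2-T23, Tap1 and Psmb9 passed under 0 of the 33. The number of members called, 5 as reported, was 1 with the microglia covariate, 2 with the meningeal fibroblast covariate, 1 with the oligodendrocyte covariate, and 0 with the endothelial covariate, with the border macrophage covariate, with the name prefix block (9 animals) and with the name number block (5 animals). It was 1 without wild types 3 and 6 together, 2 without Q140 animals 1 and 2 together, and 3 to 5 with each animal left out; the cause was not tested, although the block fits use fewer animals. The 3 counts came from leaving out Q140 animal 2, 3 or 4 or wild type 1, 3 or 6. No paired analysis was possible over all 12 animals because only 5 of them share a name number across genotypes (150 on 1 Q140 and 1 wild type, 161 on 2 Q140 and 1 wild type) and what that number marks is not given in the sources used here; the number block over these 5 called 1 gene of all tested higher. In females the count, 2, ran from 0 to 3 with each animal left out. In males it was 0 and became 1, Tap2, with library totals, with DESeq2 and with log2(FPKM + 1). No alternative gave a call for the difference between the sexes.

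Genes higher in Q140, 797 as reported, were 412 to 1074 with each animal left out, 1624 with library totals, 1570 and 1568 on log2(FPKM + 0.1) and log2(FPKM + 1), 18 and 1 with the name prefix and number blocks, 175, 174, 367, 231 and 130 with the microglia, endothelial, meningeal, oligodendrocyte and border macrophage covariates, 300 without wild types 3 and 6 and 229 without Q140 animals 1 and 2. In the same order the genes lower, 1185 as reported, were 727 to 1430, 822, 751 and 743, 63 and 0, 430, 343, 650, 498 and 256, 562 and 474. The share of calls that were higher was 40.2% as reported and 66.4% with library totals, where the median of all genes moved to 0.05 and 7 members were called.

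Signs turned round only for values that did not pass: H2-T23 with the border macrophage covariate (-0.039), Psmb8 for the difference between the sexes with voom (-0.12), and, with each animal left out, Tap1 in females (-0.12 to 0.13, below 0 without Q140 animal 2 or, at -0.10, wild type 6), H2-T23 in males (-0.049 to 0.20), and the differences between the sexes of H2-K1 (-0.23 to 0.050), Tapbp (-0.13 to 0.036) and Psmb8 (-0.16 to 0.15, with -0.06, -0.16 and -0.02 without Q140 animals 1, 3 and 4 and -0.07, -0.11 and -0.02 without wild types 1, 2 and 4). At 25 to 90 counts per animal, Psmb9 and Nlrc5 carry wider errors than the heavy chains.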
